A study of Oryza sativa with 48 samples.

Results

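PR10 and PR1 are 2 families of pathogenesis-related proteins, and 6 of their rice genes were followed through every group of this study. The genes were chosen by identifier for the family they belong to, and the rule used no measured value. Earlier results of these data were known when they were chosen. They make up 6 of the 35667 identifiers counted. The 4 PR10 genes were RSOsPR10 (Os12g0555000), OsPR10b (Os12g0555200), PBZ1, also called OsPR10a (Os12g0555500), and JIOsPR10 (Os03g0300400). The 2 PR1 genes were OsPR1a (Os07g0129200) and OsPR1b (Os01g0382000). By the numbering of rice identifiers, the first 3 PR10 genes lie close together on chromosome 12, JIOsPR10 on chromosome 3, OsPR1a on chromosome 7 and OsPR1b on chromosome 1.

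Pathogenesis-related proteins are made by plants under attack by microbes and often under wounding, drought or salt. PR10 proteins are small and stay inside the cell, share the fold of the birch pollen allergen Bet v 1, and can bind small molecules. PR1 proteins are secreted, belong to the CAP protein family and are widely used as marks of an active defence response. In rice, RSOsPR10 is known as a root PR10 gene that responds to salt, drought and jasmonate, PBZ1 as a gene induced by the chemical probenazole and by rice blast, and JIOsPR10 as a jasmonate-inducible PR10 gene. OsPR1a codes for an acidic and OsPR1b for a basic PR1 protein.

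Rice seedlings of 2 genotypes, wild type Kitaake (WT) and a genotype labelled aoc, were grown in hydroponic culture for 11 days and then given 100 mM NaCl. Allene oxide cyclase, usually written AOC, is an enzyme of jasmonate synthesis, and the series title places the study in jasmonate signalling under salt. The root and the second leaf of each genotype were taken untreated (0 h) and after 1, 6 and 72 h in NaCl, which gave 16 groups of 3 libraries, each made from 3 plants. The labels do not say how the aoc genotype was made or how many lines it stands for. No plants kept without salt to 1, 6 or 72 h are among the samples, so time in salt cannot be told apart from age and time of day. Tri-Reagent served to extract the leaf RNA and a column kit the root RNA, and organ and extraction cannot be told apart.

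Total counts were 28.6 M to 71.7 M per root library and 29.9 M to 41 M per leaf library. Levels are given as counts per 1 M counts of the library (CPM), with TMM normalization. A floor of 3 counts lay between 0.039 and 0.0923 CPM for root libraries and between 0.0762 and 0.139 CPM for leaf libraries. Of the leaf libraries, the third replicate of aoc at 0 h and the 6 libraries of 72 h correlated least with the other libraries of their group over all identifiers tested (mean r of log2 CPM 0.929 to 0.951, against 0.960 to 0.980 in the other leaf libraries). The results below that rest on leaf are therefore also given without such libraries where this changes a call. A fit without the third replicate of aoc at 0 h also left out that of WT at 1 h. The mean r of that WT library, 0.960, was within the range of the other leaf libraries. CPM is not divided by transcript length, so levels were compared between samples and never between genes. Markers of root and leaf tissue and the gene the aoc line is named for were not analysed here. In whole organs, fewer cells of a type cannot be told apart from less RNA per cell.

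The 6 genes were distributed differently over root and leaf. OsPR1b had no read in any of the 24 root libraries and 7366 reads over the leaf libraries. JIOsPR10 and OsPR1a were higher in root, and at 0 h this held in both genotypes. RSOsPR10, OsPR10b and PBZ1 had reads in every library of both organs, and none of the 3 was called different between root and leaf at 0 h.

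JIOsPR10 in WT at 0 h was at 684, 964 and 748 CPM in root replicates 1, 2 and 3, and at 11.9, 13.9 and 0.977 CPM in leaf. In aoc at 0 h it was at 550, 848 and 538 CPM in root and 12.5, 6.41 and 31.9 CPM in leaf. Every root library lay far above every leaf library. The log2 difference, root minus leaf, was 6.48 ± 1.03 (SE, n = 3 against 3) in WT (edgeR quasi-likelihood test, Benjamini-Hochberg adjusted p = 9.39e-07) and 5.25 ± 0.97 in aoc (edgeR adjusted p = 1.10e-05). The aoc difference was 6.09 without leaf replicate 3.

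OsPR1a in WT at 0 h was at 782, 901 and 798 CPM in root and 31.0, 41.4 and 0.615 CPM in leaf. In aoc the root libraries were at 720, 950 and 644 CPM and the leaf libraries at 17.4, 9.37 and 14.4 CPM. The organs did not overlap in either genotype. The log2 difference was 5.09 ± 1.28 (SE) in WT (edgeR adjusted p = 0.000654) and 5.81 ± 1.33 in aoc (edgeR adjusted p = 0.000208). In WT it was 5.71 without leaf replicate 2.

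OsPR1b in leaf at 0 h was at 9.44, 10.99 and 0 CPM in WT and 6.12, 7.14 and 0 CPM in aoc. Replicate 3 of both genotypes had no read, while replicates 1 and 2 agreed closely. Against a floor of 3 counts over the 3 root libraries, the mean leaf level was at least 271-fold higher in WT (edgeR adjusted p = 0.00801) and at least 174-fold higher in aoc (edgeR adjusted p = 0.0129). These bounds cover counting error only.

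PBZ1 in WT at 0 h was at 90.3, 116 and 38.4 CPM in root and 676, 534 and 9.56 CPM in leaf. In aoc the root libraries were at 33.1, 39.5 and 38.4 CPM and the leaf libraries at 405, 214 and 6.90 CPM. Leaf replicates 1 and 2 lay above all root libraries of their genotype and leaf replicate 3 below them. Root minus leaf was a log2 value of -2.32 ± 1.29 in WT (edgeR adjusted p = 0.106) and -2.50 ± 1.30 in aoc (edgeR adjusted p = 0.0830). With leaf replicates 1 and 2 only, a choice made after the values were seen, it was -2.89 (edgeR adjusted p = 0.00880) and -3.06 (edgeR adjusted p = 0.00586). Leaving out only leaf replicate 3 of the genotype compared gave an edgeR adjusted p of 0.0489 in WT and 0.0383 in aoc. Without the third leaf replicates of WT at 1 h and of aoc at 0 h together, the aoc value was 0.0356. The DESeq2 adjusted p in aoc was 0.0435.

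RSOsPR10 had a log2 difference, root minus leaf, of 1.69 ± 1.07 in WT (edgeR adjusted p = 0.157) and 1.59 ± 1.07 in aoc (edgeR adjusted p = 0.179). OsPR10b had 1.83 ± 1.12 (edgeR adjusted p = 0.140) and 1.65 ± 1.11 (edgeR adjusted p = 0.181). For both genes, every root library at 0 h lay above every leaf library of the same genotype, though no difference was called. Over all 8 conditions, root libraries ranged from 257 to 1540 CPM for RSOsPR10 and leaf libraries from 10.6 to 654 CPM. For OsPR10b the ranges were 51.7 to 451 CPM and 0.635 to 269 CPM. The members called at 0 h were 3 of 6 in each genotype, 2 higher and 1 lower in root. Over all identifiers tested, 71.2% were called in WT and 73.1% in aoc, so the share among the members was not above the background.

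**Figure D1:**
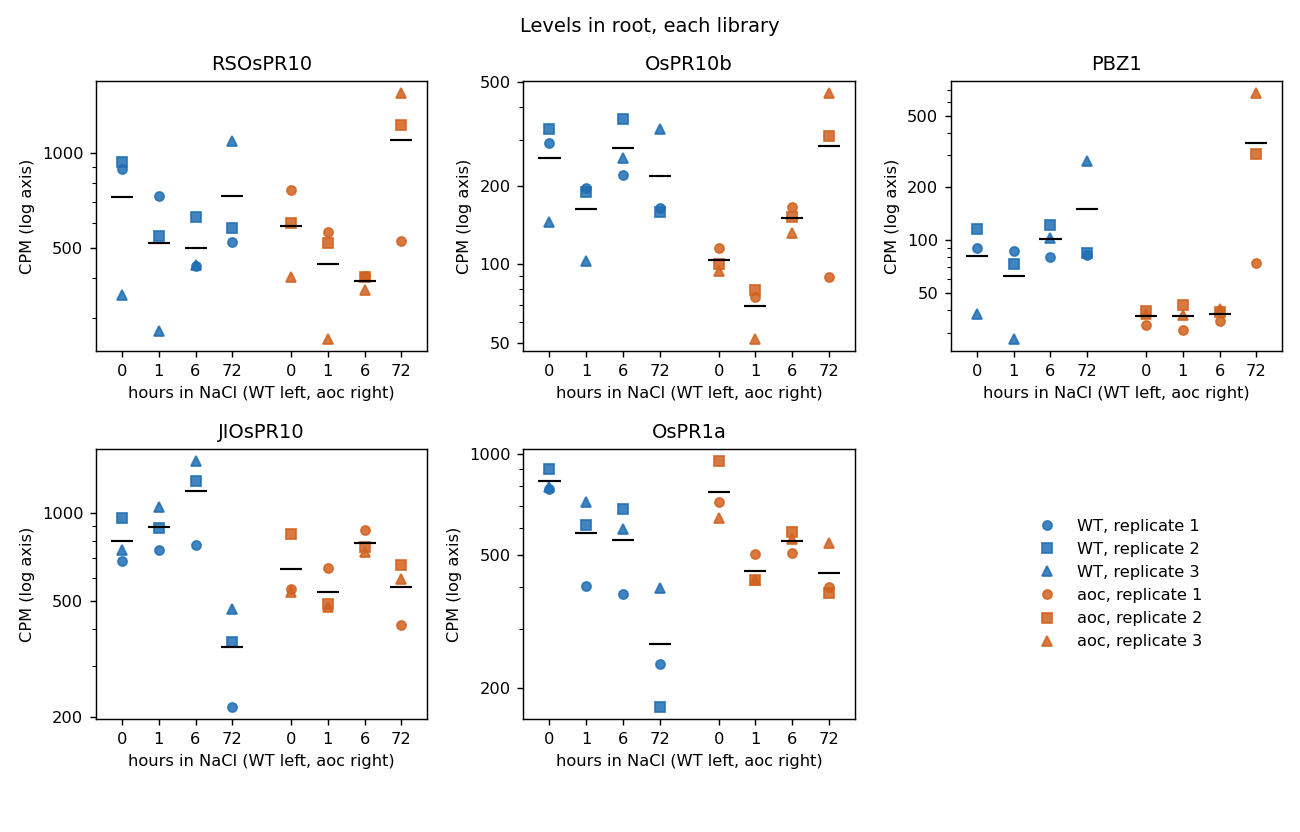
Level in CPM (log axis) of the 5 genes with reads in root, by hours in NaCl, for WT (blue, left) and aoc (orange, right). Points are libraries with a shape per replicate number and black bars are means of 3. PBZ1 in aoc stays between 30.9 and 43.0 CPM up to 6 h and spreads from 73.9 to 672 CPM at 72 h, while JIOsPR10 and OsPR1a have their lowest WT levels at 72 h.

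In root, salt time moved the members in different directions, and most called changes stood at 72 h. In WT, JIOsPR10 and OsPR1a fell at 72 h. In aoc, PBZ1 and OsPR10b rose at 72 h while OsPR1a fell at 1 h and at 72 h. RSOsPR10 was not called against 0 h at any hour in either genotype. OsPR1b had no read in root and could not be tested there, so 5 of the 6 members passed the filter on low counts. In all, 6 of 30 tests against 0 h were called, beside 18.9% to 34.7% of all identifiers tested, depending on the comparison.

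Against 0 h in WT root, 0 of 5 members were called at 1 h (background 34.1% of all identifiers tested), 0 at 6 h (24.9%) and 2, both lower, at 72 h (18.9%). Unadjusted p was under 0.05 for 0 members at 1 h and 1 at 6 h in WT and for 0 at 6 h in aoc, and DESeq2 also gave 6 calls over the 30 root tests. In aoc root, 1 member was called at 1 h (34.7%), 0 at 6 h (33.3%) and 3 at 72 h (19.8%), 2 of them higher. At 72 h the median log2 change of the 5 members was -0.19 in WT and 0.94 in aoc, beside 0.03 and 0.01 over all identifiers. Each 0 h group served all 3 hours of its genotype, so these comparisons share samples.

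PBZ1 in aoc root was at 33.1, 39.5 and 38.4 CPM at 0 h, 30.9, 43.0 and 37.7 CPM at 1 h and 35.0, 39.4 and 40.9 CPM at 6 h. At 72 h it was at 73.9, 304 and 672 CPM. The level was tight up to 6 h, and at 72 h all 3 libraries lay above it while spreading 9.09-fold among themselves. The log2 change from 0 h was 3.28 ± 0.64 (SE; edgeR adjusted p = 0.00237), a 9.70-fold rise. Without replicate 3 of aoc at 72 h it was 2.41 (edgeR adjusted p = 0.0160). From 6 to 72 h the change was 3.18 ± 0.64 (edgeR adjusted p = 0.00475). That value was 2.31 without the same library, and its edgeR adjusted p was 0.0926 in a fit of the 2 groups alone.

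PBZ1 in WT root was at 90.3, 116 and 38.4 CPM at 0 h and 82.6, 84.6 and 279 CPM at 72 h. The groups overlapped, and only replicate 3 was above the 0 h range. The log2 change was 0.90 ± 0.59 (edgeR adjusted p = 0.295). In the libraries of both genotypes at 72 h, replicate 3 was the highest.

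OsPR10b, which lies near PBZ1 on chromosome 12, was in aoc root at 116, 100.3 and 94.4 CPM at 0 h and 89.0, 311 and 451 CPM at 72 h. Replicate 1 was just below the 0 h libraries and replicates 2 and 3 were far above them. The log2 change was 1.49 ± 0.44 (edgeR adjusted p = 0.0245). The call rested on several libraries: leaving out replicate 2 or 3 of the 0 h group gave an edgeR adjusted p of 0.0808 or 0.0710, leaving out replicate 2 or 3 of the 72 h group gave 0.0775 or 0.146, and a fit of the 2 groups alone gave 0.131. In WT root OsPR10b was at 292, 329 and 145 CPM at 0 h and 165, 159 and 330 CPM at 72 h, with overlap (log2 change -0.19 ± 0.43, edgeR adjusted p = 0.790).

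RSOsPR10 in aoc root was at 760, 598 and 403 CPM at 0 h, 407, 404 and 368 CPM at 6 h and 525, 1226 and 1540 CPM at 72 h. The 72 h libraries lay above those of 6 h and overlapped those of 0 h. From 6 to 72 h the log2 change was 1.47 ± 0.45 (edgeR adjusted p = 0.0465), which remained under 0.05 in 10 of the 24 fits that left out 1 root library and reached 0.172 without aoc 72 h replicate 3. It was 0.0576 with no filter on low counts and 0.108 in a fit of the 2 groups alone. Against 0 h the change at 72 h was 0.94 ± 0.45 (edgeR adjusted p = 0.146). In WT root the libraries were at 885, 934 and 356 CPM at 0 h and 523, 578 and 1085 CPM at 72 h, and the log2 change was 0.04 ± 0.44 (edgeR adjusted p = 0.960).

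Within root groups, OsPR10b ordered the libraries much as RSOsPR10 did and PBZ1 less so. The library with the highest RSOsPR10 level was also highest for OsPR10b in 7 of 8 root groups, for PBZ1 and OsPR1a in 5 and for JIOsPR10 in 4. The library lowest for RSOsPR10 was also lowest for OsPR10b in 7, for JIOsPR10 in 6, for PBZ1 in 5 and for OsPR1a in 2. Counts of this kind were not made over all identifiers. In aoc root at 0, 1 and 6 h, replicate 1 was the highest for RSOsPR10 and the lowest for PBZ1. In root aoc at 72 h, replicate 1 was the lowest and replicate 3 the highest for all 3 genes of chromosome 12.

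JIOsPR10 in WT root was at 684, 964 and 748 CPM at 0 h, 746, 887 and 1044 CPM at 1 h, 776, 1282 and 1502 CPM at 6 h and 217, 362 and 469 CPM at 72 h. All 72 h libraries lay below every library of the other hours. The log2 change from 0 to 72 h was -1.16 ± 0.27 (edgeR adjusted p = 0.00847), and from 6 to 72 h it was -1.77 ± 0.28 (edgeR adjusted p = 0.000498). Both calls held in every fit that left out 1 root library. At 6 h the level was 0.61 ± 0.27 above 0 h on the log2 scale (edgeR adjusted p = 0.110, with 0.0407 to 0.351 when 1 root library was left out, the lowest without WT 6 h replicate 1). In aoc root JIOsPR10 was at 550, 848 and 538 CPM at 0 h and 414, 664 and 594 CPM at 72 h, with overlap (log2 change -0.18 ± 0.27, edgeR adjusted p = 0.687).

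OsPR1a in WT root was at 782, 901 and 798 CPM at 0 h, 403, 614 and 719 CPM at 1 h, 381, 684 and 597 CPM at 6 h and 236, 176 and 399 CPM at 72 h. Every salt library lay below every 0 h library. The log2 change at 72 h was -1.58 ± 0.26 (edgeR adjusted p = 0.00117), which held in every fit that left out 1 root library. At 1 and 6 h it was -0.48 ± 0.26 (edgeR adjusted p = 0.161) and -0.54 ± 0.26 (edgeR adjusted p = 0.136). From 6 to 72 h the change was -1.04 ± 0.26 (edgeR adjusted p = 0.0111), which became 0.0548 when replicate 2 of WT at 6 h was left out, 0.0537 when replicate 1 of WT at 72 h was, and 0.118 in a fit of the 2 groups alone.

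In aoc root OsPR1a was at 720, 950 and 644 CPM at 0 h, 502, 419 and 420 CPM at 1 h, 505, 586 and 557 CPM at 6 h and 401, 384 and 541 CPM at 72 h. As in WT, every salt library was below every 0 h library. The log2 change was -0.72 ± 0.26 at 1 h (edgeR adjusted p = 0.0364), -0.45 ± 0.26 at 6 h (0.192) and -0.77 ± 0.26 at 72 h (0.0421). The call at 1 h was lost without aoc 0 h replicate 1 (0.0550) or 2 (0.165), or without aoc 1 h replicate 1 (0.0507), 2 (0.102) or 3 (0.0960), all as edgeR adjusted p. The call at 72 h was lost without aoc 0 h replicate 1 (0.0614) or 2 (0.183), aoc 72 h replicate 1 (0.106) or 2 (0.144), or WT 1 h replicate 2 (0.0505). It was also lost with no filter on low counts (0.0517) and in a fit of the 2 groups alone (0.0596), all as edgeR adjusted p.

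**Figure D2:**
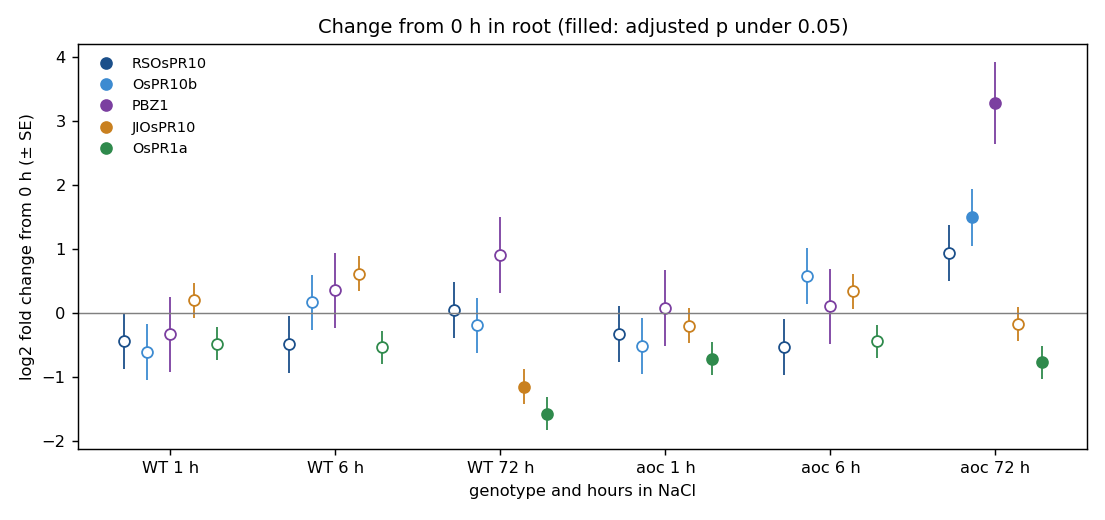
Log2 fold change from 0 h in root with its SE, for 5 genes in WT and aoc at 1, 6 and 72 h. Filled points have an edgeR adjusted p under 0.05, and the highest is PBZ1 in aoc at 72 h, at 3.28, while the lowest is OsPR1a in WT at 72 h, at -1.58.

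Between consecutive salt hours in root, 0 of 5 members were called from 1 to 6 h in WT (background 36.4%) and 0 in aoc (35%). From 6 to 72 h, 2 fell in WT (15.3%) and 2 rose in aoc (9.27%). The aoc value of OsPR10b from 1 to 6 h was a log2 change of 1.10 ± 0.44, with an edgeR adjusted p of 0.0593 and a DESeq2 adjusted p of 0.0361. By edgeR it was 0.0158 or 0.0458 when replicate 1 or 3 of the aoc 72 h group was left out, and 0.00819 in a fit of the 2 groups alone. Unadjusted p was under 0.05 for 0 members in WT and 1 in aoc in the step from 1 to 6 h.

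The design sets aoc beside WT at each hour, and in root 0 of 20 member tests were called by edgeR and 0 by DESeq2, with 7 at an unadjusted p under 0.05. The background was 0.756% at 0 h, 3.5% at 1 h, 2.65% at 6 h and 3.24% at 72 h. An unadjusted edgeR p under 0.05 was found for 2988, 4628, 3974 and 4455 of 26195 identifiers at these hours. OsPR10b had the lower levels in aoc from 0 to 6 h. At 0 h it was at 292, 329 and 145 CPM in WT and 116, 100.3 and 94.4 CPM in aoc, at 1 h at 196, 188 and 103 CPM and 75.1, 79.8 and 51.7 CPM, and at 6 h at 220, 360 and 255 CPM and 166, 152 and 132 CPM. All aoc libraries lay below all WT libraries at these 3 hours, and at 72 h the genotypes overlapped. The log2 difference, aoc minus WT, was -1.29 ± 0.44 at 0 h (edgeR adjusted p = 0.226), -1.20 ± 0.44 at 1 h (0.149), -0.88 ± 0.44 at 6 h (0.351) and 0.39 ± 0.43 at 72 h (0.737).

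PBZ1 in root at 6 h was at 79.8, 121 and 103 CPM in WT and 35.0, 39.4 and 40.9 CPM in aoc, without overlap. The log2 difference was -1.38 ± 0.60 (edgeR adjusted p = 0.272, or 0.0160 in a fit of the 2 groups alone). At 72 h WT was at 82.6, 84.6 and 279 CPM and aoc at 73.9, 304 and 672 CPM, with overlap and a log2 difference of 1.24 ± 0.59 (edgeR adjusted p = 0.293). That difference rested on single libraries: leaving out replicate 3 of the aoc group gave 0.37 (edgeR adjusted p = 0.861), leaving out its replicate 1 gave 1.73 (0.0493), and leaving out replicate 3 of the WT group gave 2.07 (0.121). The sign of the difference was thus negative at 6 h and positive at 72 h, and neither value was called.

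JIOsPR10 at 1 h was at 746, 887 and 1044 CPM in WT root and 647, 488 and 476 CPM in aoc root, without overlap (log2 difference -0.69 ± 0.27, edgeR adjusted p = 0.182). The difference was -0.30 ± 0.27 at 0 h (edgeR adjusted p = 0.764) and -0.57 ± 0.27 at 6 h (0.331), with overlap. At 72 h its sign was positive, at 0.68 ± 0.27 (edgeR adjusted p = 0.183), again with overlap. OsPR1a at 72 h was at 236, 176 and 399 CPM in WT and 401, 384 and 541 CPM in aoc, where only WT replicate 3 reached the aoc libraries. Its log2 difference was 0.71 ± 0.26 (edgeR adjusted p = 0.136), with a range of 0.48 to 1.10 and an edgeR adjusted p of 0.0304 to 0.429 when 1 root library was left out, the lowest p without WT 72 h replicate 3. RSOsPR10 showed log2 differences between -0.34 and 0.60 over the 4 hours in root, and none was called.

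A change called in one genotype and not in the other is not a difference between them, so the difference of the salt responses was tested itself. In root 0 of 15 member tests were called by edgeR and 0 by DESeq2, with 4 at an unadjusted p under 0.05, all at 72 h. Over all identifiers the share called was 0.0115% at 1 h, 0% at 6 h and 0% at 72 h. An unadjusted edgeR p under 0.05 was found for 1140, 1083 and 1412 of 26195 identifiers at these hours. At 72 h the aoc response minus the WT response was 2.38 ± 0.84 for PBZ1 (edgeR adjusted p = 0.836), 1.68 ± 0.62 for OsPR10b (0.867), 0.98 ± 0.38 for JIOsPR10 (0.886), 0.80 ± 0.36 for OsPR1a (0.907) and 0.89 ± 0.63 for RSOsPR10 (0.9999), as log2 values with their SE. When 1 root library was left out, the value of PBZ1 ran from 1.503, without aoc 72 h replicate 3, to 3.20, without WT 72 h replicate 3, and no member was called.

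In leaf the spread between replicates was the main feature of these genes. Within a group of 3, the highest library was 3.54 to 36.1 times the lowest for RSOsPR10, 4.55 to 101 times for OsPR10b, 1.83 to 70.7 times for PBZ1, 4.99 to 16.6 times for JIOsPR10 and 1.86 to 111 times for OsPR1a. For OsPR1b it was 7.91 to 175 times over the 6 groups without a library at 0. In root the same ratio ran from 1.11 to 9.09 over the 5 genes with reads.

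The median over the 8 leaf groups of the SD of log2 CPM was 2.00 for RSOsPR10, 1.87 for OsPR10b, 2.41 for PBZ1, 1.33 for JIOsPR10, 1.49 for OsPR1a and 2.16 for OsPR1b. It was 0.272 for the median of the 24317 identifiers tested in leaf. A larger value was found in 0.193% of these identifiers for RSOsPR10, 0.243% for OsPR10b, 0.0452% for PBZ1, 1.36% for JIOsPR10, 0.790% for OsPR1a and 0.132% for OsPR1b. In root the members had values of 0.28 to 0.60, beside 0.197 for the median of 26195 identifiers, and 7.36% to 34.1% of identifiers lay above them. The members' spread was thus far up the distribution in leaf and less so in root.

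**Figure D3:**
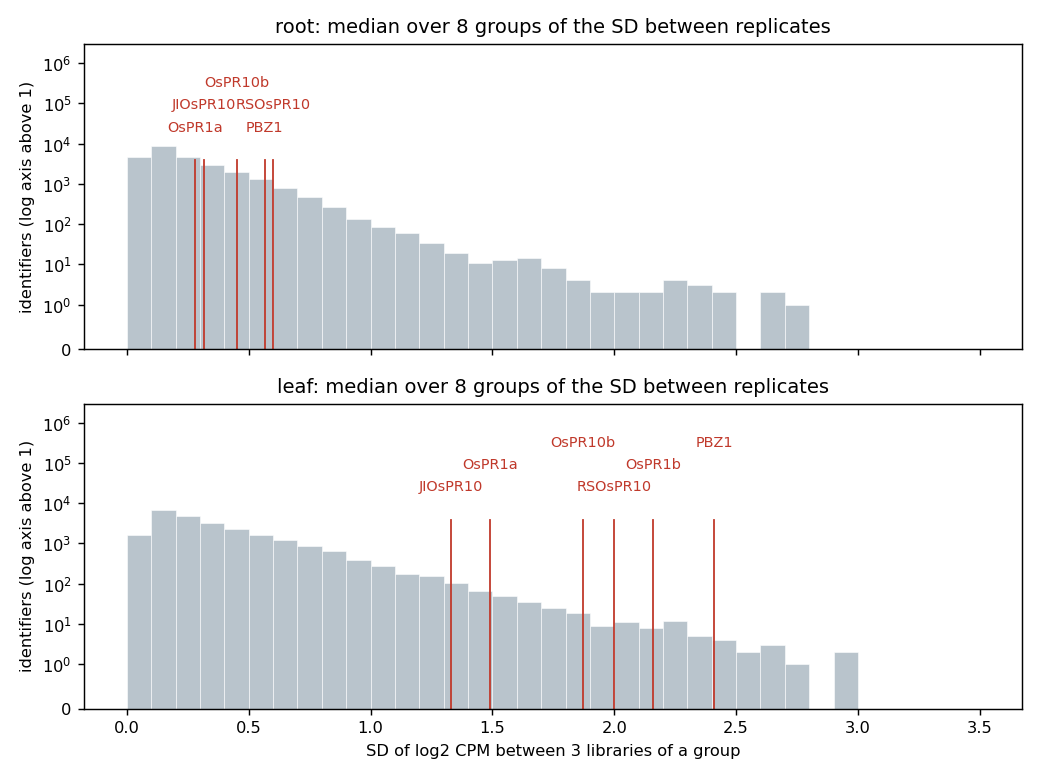
Number of identifiers (log axis above 1) by the median, over 8 groups, of the SD of log2 CPM between the 3 libraries of a group, for root (top) and leaf (bottom). Red lines mark the members, which lie from 0.28 to 0.60 in root and from 1.33 to 2.41 in leaf.

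The same leaf libraries were low for several of the genes. Replicate 3 was the lowest library in 7 of 8 leaf groups for RSOsPR10 and OsPR10b, in 6 for PBZ1 and OsPR1a, in 4 for JIOsPR10 and in all 8 for OsPR1b. Of all identifiers tested in leaf, 4.42% had replicate 3 lowest in at least 7 groups. The library highest for RSOsPR10 in a leaf group was also highest for PBZ1 in 8 of 8 groups, for OsPR10b and OsPR1a in 7, for JIOsPR10 in 5 and for OsPR1b in 4. How many of all identifiers share the highest library with RSOsPR10 as often was not counted. The labels give the replicate number without saying what it stands for, and its part in these values was not tested.

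**Figure D4:**
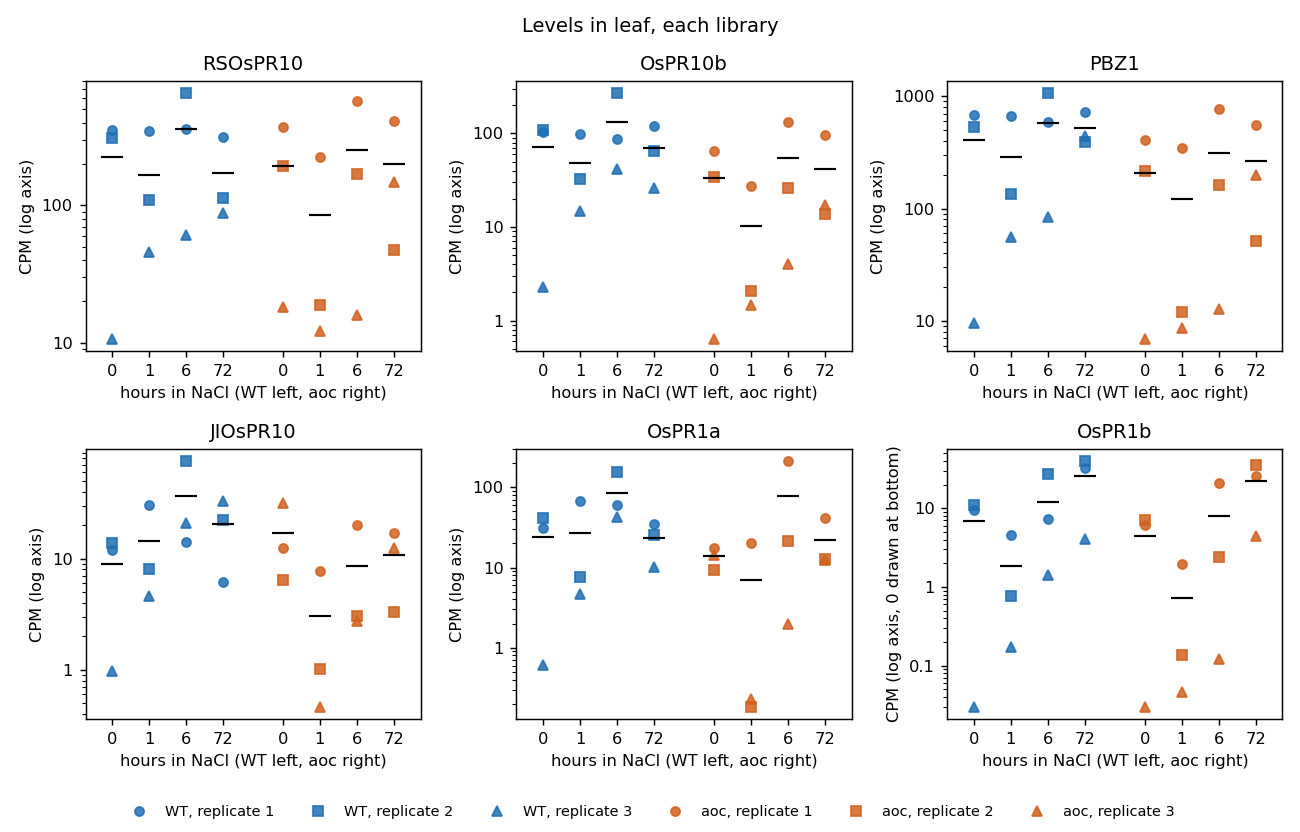
Level in CPM (log axis) of the 6 genes in leaf, by hours in NaCl, for WT (blue, left) and aoc (orange, right), with a point per library and black bars for means of 3. Triangles (replicate 3) are often the lowest, and the 2 libraries without an OsPR1b read, replicate 3 of WT and of aoc at 0 h, are drawn at the bottom of that panel.

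RSOsPR10 in WT leaf was at 352, 310 and 10.6 CPM at 0 h, 345, 109 and 45.8 CPM at 1 h, 360, 654 and 61.3 CPM at 6 h and 314, 113 and 88.7 CPM at 72 h. In aoc leaf it was at 374, 192 and 18.3 CPM at 0 h, 223, 18.9 and 12.3 CPM at 1 h, 571, 168 and 15.8 CPM at 6 h and 410, 47.5 and 148 CPM at 72 h. The hours overlapped within each genotype, and replicate 1 of WT stayed between 314 and 360 CPM. PBZ1 in WT leaf was at 669, 135 and 55.9 CPM at 1 h, 585, 1062 and 83.6 CPM at 6 h and 722, 395 and 441 CPM at 72 h, beside 676, 534 and 9.56 CPM at 0 h. In aoc leaf it was at 345, 12.0 and 8.70 CPM at 1 h, 766, 163 and 12.7 CPM at 6 h and 555, 51.5 and 197 CPM at 72 h. OsPR10b, the lowest of whose leaf values was 0.635 CPM in aoc at 0 h, followed the same libraries.

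JIOsPR10 in WT leaf was at 11.9, 13.9 and 0.977 CPM at 0 h and 14.1, 75.4 and 20.9 CPM at 6 h, so that every 6 h library was above every 0 h library. The log2 change was 2.07 ± 1.12 (edgeR adjusted p = 0.182), and 1.02 without WT 6 h replicate 2 (0.594). OsPR1a in WT leaf was at 31.0, 41.4 and 0.615 CPM at 0 h and 59.4, 154 and 42.1 CPM at 6 h, again without overlap, with a log2 change of 1.83 ± 1.49 (edgeR adjusted p = 0.392). It ranged from 1.11, without WT 6 h replicate 2, to 2.49, without WT 0 h replicate 2. OsPR1a in leaf of aoc was at 20.4, 0.183 and 0.231 CPM at 1 h and 212, 21.7 and 1.97 CPM at 6 h. From 1 to 6 h its log2 change was 3.56 ± 1.61 (edgeR adjusted p = 0.110), with 0.84 to 8.59 over the fits that left out 1 leaf library. The highest value, without aoc 1 h replicate 1, the only library of that group above 1 CPM, had an edgeR adjusted p of 0.0119.

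OsPR1b in WT leaf was at 4.64, 0.780 and 0.172 CPM at 1 h, 7.34, 27.1 and 1.41 CPM at 6 h and 32.9, 39.6 and 4.04 CPM at 72 h. In aoc leaf it was at 1.99, 0.137 and 0.0463 CPM at 1 h, 21.1, 2.42 and 0.121 CPM at 6 h and 26.1, 35.5 and 4.48 CPM at 72 h. At 72 h the level was above that of the library with the same replicate number at 0 h in 3 of 3 cases in both genotypes, while the groups overlapped. Same-numbered libraries of these hours deviated together in aoc and not in WT, and no such count was made over all identifiers. The log2 change from 0 to 72 h was 1.91 ± 1.62 in WT (edgeR adjusted p = 0.392) and 2.36 ± 1.66 in aoc (edgeR adjusted p = 0.292). Leaving out 1 leaf library gave 1.32 to 2.47 in WT and 1.78 to 2.88 in aoc.

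Libraries with the same replicate number deviated together in some leaf comparisons, where the replicate number was also entered as a block. With the block, OsPR1b had a log2 change of 3.05 from 0 to 72 h in leaf of aoc (edgeR adjusted p = 0.0242), and its change in WT leaf from 1 to 6 h was 3.09 (edgeR adjusted p = 0.0346). Without the block the WT change from 1 to 6 h was 2.71 ± 1.71 (edgeR adjusted p = 0.259), and 1.29 to 4.65 when 1 leaf library was left out.

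In leaf without the block, 0 of 36 member tests against 0 h were called by edgeR and 0 by DESeq2, with 1 at an unadjusted p under 0.05. The background was 1.28% at 1 h, 29.2% at 6 h and 28.6% at 72 h in WT, and 0.654%, 35.6% and 30.5% in aoc. Between consecutive salt hours 0 of 24 were called by edgeR and 0 by DESeq2, with 1 at an unadjusted p under 0.05. The background there was 26.9% from 1 to 6 h and 30.3% from 6 to 72 h in WT, and 27.6% and 23% in aoc. The SE of the members' log2 changes from 0 h was 1.09 to 1.82 in leaf, against 0.26 to 0.64 in root, so a change of the size called in root could miss the threshold in leaf at this spread.

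Between the genotypes 0 of 24 leaf tests were called by edgeR and 0 by DESeq2, with 0 at an unadjusted p under 0.05. The background was 0.679% at 0 h, 4.54% at 1 h, 0.489% at 6 h and 2.88% at 72 h. The most negative log2 difference, aoc minus WT, was -2.25 for OsPR10b at 1 h (edgeR adjusted p = 0.439). OsPR10b was then at 97.9, 32.8 and 14.9 CPM in WT leaf and 27.4, 2.06 and 1.48 CPM in aoc leaf, with overlap. For JIOsPR10 at 1 h it was -2.24 ± 1.16 (edgeR adjusted p = 0.302). Both values turned on replicate 1: for OsPR10b the difference was -4.79 without that of aoc at 1 h and -1.24 without that of WT at 1 h, and for JIOsPR10 -4.29 and -1.07, none of them called. The difference of the salt responses between the genotypes was called in 0 of 18 leaf tests by edgeR and 0 by DESeq2, with 0 at an unadjusted p under 0.05, beside 0%, 0.00411% and 0% of all identifiers at 1, 6 and 72 h.

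The WT salt responses of root and leaf were set against each other for the 5 members with reads in both organs, and 0 of 15 tests were called by edgeR and 0 by DESeq2, with 1 at an unadjusted p under 0.05. The background was 4.86% at 1 h, 14.8% at 6 h and 16.6% at 72 h. The test with the lowest p was JIOsPR10 at 72 h, with a root response 2.38 ± 1.16 log2 units below the leaf response (log2 difference -2.38, edgeR adjusted p = 0.158). The falls called in WT root at 72 h were thus not shown to be particular to root.

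The 16 groups were put in order of their mean level for each gene. Of the 15 pairs of neighbouring groups, those whose libraries did not overlap numbered 0 for RSOsPR10, OsPR10b and PBZ1, 2 for JIOsPR10 and OsPR1a and 1 for OsPR1b. The root groups of OsPR1b, all at 0 CPM, could not separate from each other. No such count was made over all identifiers, so whether these numbers are ordinary was not tested. RSOsPR10 was highest in aoc root at 72 h (1097 ± 519.5 CPM, SD, n = 3), and all 8 root groups had a higher mean than any leaf group. OsPR10b was also highest in aoc root at 72 h (284 ± 183 CPM), followed by WT root at 6 h (278 CPM). PBZ1 was highest in WT leaf at 6 h (577 ± 489.5 CPM) and lowest in aoc root at 0 h (37.0 ± 3.38 CPM). JIOsPR10 was highest in WT root at 6 h (1186 ± 372 CPM), and OsPR1a in WT root at 0 h (827 ± 64.2 CPM). For both of these genes WT root at 72 h did not overlap the leaf group with the highest mean, WT at 6 h. For JIOsPR10 this break separated the organs, with root libraries from 217 CPM and leaf libraries up to 75.4 CPM. For OsPR1a the organs overlapped, since replicate 1 of aoc leaf at 6 h (212 CPM) lay above replicate 2 of WT root at 72 h (176 CPM). OsPR1b was highest in WT leaf at 72 h (25.5 ± 18.9 CPM).

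Within leaf, the lowest group mean was that of aoc at 1 h for all 6 genes, at 84.8 CPM for RSOsPR10, 10.3 for OsPR10b, 122 for PBZ1, 3.06 for JIOsPR10, 6.92 for OsPR1a and 0.724 for OsPR1b. The highest leaf mean was that of WT at 6 h for 5 of the genes and that of WT at 72 h for OsPR1b. None of these leaf differences was called in the fit of all leaf libraries without the replicate block, and the order rests on means of libraries that differ widely. With the block, the step from 1 to 6 h was called for OsPR1b in WT (edgeR adjusted p = 0.0346). In aoc it was called for OsPR1a (edgeR adjusted p = 0.0400) and OsPR1b (0.0385), where the libraries share only a number.

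The likeness of the members' patterns over the groups was described by correlation. After each tissue's mean was taken out, group means of log2 CPM correlated between members at 0.531 to 0.876 over the 16 groups, highest for OsPR10b with PBZ1. OsPR1b had no read in the 8 root groups, so its values, 0.604 to 0.676 with the other members, rest on the 8 leaf groups. By the same measure over 19426 identifiers, the patterns most like a member were those of Os01g0337500 for RSOsPR10 (r = 0.928), Os01g0721300 for OsPR10b (0.943), Os02g0570700 for PBZ1 (0.943), Os04g0288100 for JIOsPR10 (0.883), Os04g0381400 for OsPR1a (0.919) and Os10g0142100 for OsPR1b (0.957). The next were Os12g0629700 (0.911), Os08g0453700 (0.923), Os06g0313440 (0.932), OsPR1a itself for JIOsPR10 (0.869), Os11g0202200 (0.886) and Os08g0191100 (0.951), in the same order. Here too the values of OsPR1b rest on leaf. These values are descriptions without a test, and no value for ordinary pairs of identifiers was computed beside them.

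Around the PR10 genes on chromosome 12, 10 identifiers run from Os12g0554500 to Os12g0555901, and 7 of them are not members. Os12g0555300, which lies between OsPR10b and PBZ1 in the numbering, ranged over 0.494 to 25.4 CPM (root) and 0.127 to 29.2 CPM (leaf). In aoc root its log2 change from 0 to 72 h was 2.80 ± 0.71 (edgeR adjusted p = 0.0118). The libraries were at 1.94, 1.45 and 2.47 CPM at 0 h and 2.47, 12.0 and 25.4 CPM at 72 h. Replicate 1 thus stayed in the 0 h range, and, as for OsPR10b, only replicates 2 and 3 were above it. For PBZ1 every 72 h library was above those of 0 h. Os12g0555100, between RSOsPR10 and OsPR10b, fell in the same comparison by 2.83 on the log2 scale (SE 0.90, edgeR adjusted p = 0.0333). Of the 6 non-members tested, 1 was higher and 3 were lower in aoc root at 72 h, and 0 were higher and 1 lower in WT root at 72 h. Among all identifiers tested, 19.8% were called in this aoc comparison and 18.9% in that of WT. Reads of near-identical copies can be split between neighbours by counting, and the counting rule is not given in the sources used here, so single values in this run are uncertain to that extent.

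**Figure D5:**
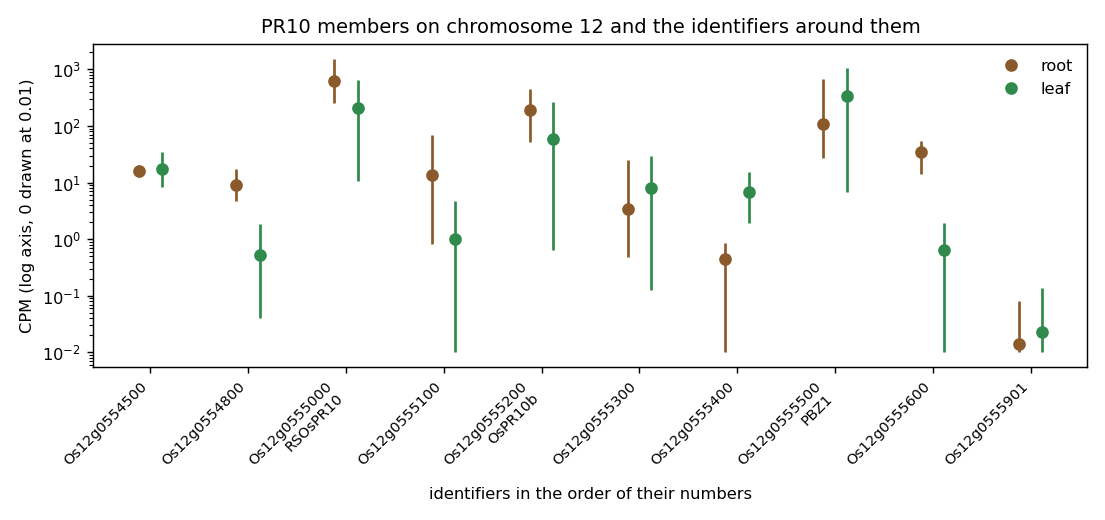
Mean level (point) and range over 24 libraries (line) in CPM on a log axis, for root (brown) and leaf (green), of the identifiers on chromosome 12 from Os12g0554500 to Os12g0555901 in the order of their numbers. CPM is not divided by length, so points are to be read between the organs; PBZ1 spans 27.6 to 672 CPM (root) and 6.90 to 1062 CPM (leaf).

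OsPR1a has 20 non-member identifiers around it on chromosome 7, of which 16 were tested in root. At 0, 1, 6 and 72 h, 2, 5, 6 and 2 of them were called lower in aoc than in WT root and 0 were called higher, while OsPR1a itself had a log2 difference of -0.09 ± 0.26 at 0 h. Among all identifiers tested in root, 0.756%, 3.5%, 2.65% and 3.24% were called at these hours, in either direction. Os07g0127500 was lower at all 4 hours, with a log2 difference of -5.59 ± 0.70 at 0 h (edgeR adjusted p = 0.000168), and so was Os07g0127600, with -4.90 ± 0.80 at 0 h (edgeR adjusted p = 0.00358). The nearest following identifier, Os07g0129300, ranged over 46.8 to 671 CPM (root) and 16.4 to 2095 CPM (leaf). Around OsPR1b on chromosome 1, Os01g0382400 showed the same leaning to leaf, with at most 0.475 CPM in a root library and 3.86 to 57.2 CPM over the leaf libraries.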

How the data were processed

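The values are raw read counts per gene identifier, deposited by the authors in 1 table of 35667 identifiers by 48 libraries. Of these, 3032 had no read. Per the submitters' processing notes, fastp, HISAT2 and DESeq2 were used with the build IRGSP-1.0. Not given in the sources used here are versions, counting tool and strand setting.

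Tests used edgeR 4.0.16 in R 4.3.3: identifiers were filtered with filterByExpr, TMM factors were computed, and a robust quasi-likelihood model of group means was tested by F test. Each tissue's 24 libraries formed 1 fit (26195 identifiers tested for root, 24317 for leaf), and all 48 formed the fit for differences between tissues (27323). Over 39 comparisons, p-values were adjusted by Benjamini-Hochberg within each comparison, and an identifier was called at an adjusted p under 0.05. A log2 change divided by the square root of F gave its SE. CPM levels use TMM factors computed over all 48 libraries. The edgeR fits were tested on simulated counts. DESeq2 1.42.0 was an alternative, beside RLE factors, no filter, the replicate block, the compared groups alone, each library left out, a fit without the third leaf replicates of WT at 1 h and aoc at 0 h, and one without the 72 h leaf libraries. Leaf replicates 1 and 2 only was added after the values were seen.

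The members, lists and tests were chosen with earlier results of these data known. Named were the 6 members, the 2 identifiers most like each (Pearson r of group-mean log2 CPM over 16 groups, tissue mean removed, range of at least 1 log2 unit) and identifiers neighbouring the members by number. Member names come from the rule that chose them; the reference table at hand follows another assembly and matched 0 members by identifier. Replicates are biological, of 3 plants each, per the labels.

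The labels give replicate numbers without a meaning. Same-numbered libraries were taken as pairs where the deviations from their group means correlated over 0.1 in all 3 pairs, which held in 8 of 14 root comparisons, 4 of 14 in leaf and WT root against leaf at 0 h. Sequencing carried no molecular identifiers, so floors cover counting error only.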

Additional observations from a re-analysis of the deposited data

How the results depend on the processing

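Of the 10 sets of member tests, the count of calls of 5 stayed within 1.5 times its value under every alternative run: both differences of salt responses between genotypes, the difference between tissues, aoc against WT in leaf and root against leaf. Except for root against leaf, that count was 0, so this says only that no member was called under any alternative. It is no measure of how stable the log2 values were. Leaving out 1 library at a time gave 3 to 7 calls for root against 0 h (6 in the main analysis), 0 to 1 for aoc against WT in root (0), 2 to 6 between salt hours in root (4) and 0 to 1 between salt hours in leaf (0). In a fit of the compared groups alone, aoc against WT in root gave 1 call, PBZ1 at 6 h; OsPR1b between root and leaf could not be fitted there, since the filter removed it. With the replicate block, leaf gave 2 calls against 0 h and 3 between salt hours. Those called where the numbers paired the libraries are printed above. Another was OsPR1b in WT from 0 to 72 h (log2 change 2.51, edgeR adjusted p = 0.0490). The rest, in aoc from 1 to 6 h, were OsPR1a (3.52, 0.0400) and OsPR1b (3.22, 0.0385). In these comparisons the rule for pairing was not met, though in aoc from 1 to 6 h only replicate 2 missed it. The block changed no other call. JIOsPR10 in aoc root from 1 to 6 h was called in the fit of the groups alone (log2 change 0.55, edgeR adjusted p = 0.0386), and OsPR10b from 0 to 6 h (0.57, 0.0226). Without aoc 72 h replicate 1, OsPR10b from 6 to 72 h had an edgeR adjusted p of 0.0406. No called value changed sign under any alternative. RLE factors shifted log2 changes by at most 0.0553. The cause of these changes was not tested.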
